A study of Homo sapiens with 26 samples.

Results

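The nuclear genes of the respiratory chain were taken as the autosomal protein-coding genes of GENCODE release 44 on GRCh37 (hg19) whose symbols begin with NDUFA, NDUFB, NDUFC, NDUFS, NDUFV, UQCR, COX4 to COX8, ATP5F, ATP5M or ATP5P, together with SDHA, SDHB, SDHC and SDHD. This rule gave 94 genes of 19229 autosomal protein-coding genes. Sorted by symbol, they comprised 37 genes of complex I, 4 of complex II, 9 of complex III, 16 of complex IV and 18 of complex V, 8 complex I assembly factors whose symbols begin with NDUFAF, and 2 readthrough genes, ATP5MF-PTCD1 and NDUFC2-KCTD14, which share sequence with ATP5MF and NDUFC2. The classes follow the symbols, so NDUFA4, whose protein is a subunit of cytochrome c oxidase, and its paralogue NDUFA4L2 were counted under complex I. COX7B, NDUFA1 and NDUFB11 match by symbol but are X-linked and lay outside the rule.

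The study mapped, by chromatin immunoprecipitation and sequencing (ChIP-seq) against a HALO tag, where tagged proteins sat in BJ, an established cell line from human foreskin fibroblasts. The cells ectopically expressed FOXA1, one of 3 FOXA1 variants that the labels name FOXA1dbd, FOXA1nhaa and FOXA1rraa without further description, or HNF4A, each for 48 hours. All groups shared the cell line, the tag and the antibody, and the labels list 2 ChIP libraries per construct with their inputs. A single full peak list per construct was analysed, so there was no replicate error and no test between constructs was possible. The FOXA1 list held 155652 peaks, that of FOXA1dbd 28831, that of FOXA1nhaa 105591, that of FOXA1rraa 71202 and that of HNF4A 38291.

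The respiratory chain passes electrons from NADH (complex I) and succinate (complex II) through complex III and cytochrome c to oxygen at complex IV, and complex V makes ATP from the proton gradient. Most subunits are encoded in the nucleus and the remainder on mitochondrial DNA. FOXA1 is a forkhead factor known to open closed chromatin, and HNF4A is a nuclear receptor of liver, kidney and gut that binds direct repeats of a hexamer close to AGGTCA. NRF1, GABP (an ETS factor), YY1 and the oestrogen-related receptors are textbook regulators of the nuclear genes of the chain. The data give binding and no RNA levels.

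HNF4A sat at the start sites of most of these genes. A start-site peak is one whose centre lay within 1000 bp of the start of the gene's canonical transcript. Such an HNF4A peak was present at 58 of the 94 genes, or 61.7% (95% Wilson interval 51.6 to 70.9%), against 42.9% of all autosomal protein-coding genes. The interval did not include the share of all genes. All such intervals cover counting error over genes only, and genes are not replicates of a binding experiment. FOXA1 had a start-site peak at 8 genes, or 8.51% (4.38 to 15.9%), against 7.44% of all genes, FOXA1dbd at 2 against a background of 1.74%, FOXA1nhaa at 3 against 4.47% and FOXA1rraa at 4 against 2.67%. For all 4 FOXA1 constructs the interval included the share of all genes. Counting any of the 4, the number was 9, or 9.57%, against 9.44%. By complex, FOXA1 had a start-site peak at 6 of 37 complex I genes, or 16.2% (7.65 to 31.1%). It had 1 at the 16 genes of complex IV and 1 at the 18 of complex V. The lower end of the complex I interval lay just above the 7.44% of all genes, and no test between complexes was made. HNF4A without any FOXA1 construct marked 54 start sites, or 57.4%, against 38.5% of all genes. HNF4A together with a FOXA1 construct marked 4 start sites, or 4.26%, against 4.43%, and these belonged to NDUFA11, NDUFS4, NDUFV2 and ATP5MG.

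Over the whole gene window, the gene body with 2 kb on either side, the order was different. At least 1 bp of a FOXA1 peak fell in the windows of 53 genes, or 56.4% (46.3 to 66.0%), against 58.8% of all genes. The FOXA1dbd list reached 23 genes, or 24.5% (16.9 to 34.0%), against 34.4%, the FOXA1nhaa list 42 genes, or 44.7% (35.0 to 54.7%), against 53.9%, and the FOXA1rraa list 31 genes, or 33.0% (24.3 to 43.0%), against 47.6%. HNF4A reached 67 genes, or 71.3% (61.4 to 79.4%), against 63.8%. At least 1 FOXA1 construct reached 58 genes, or 61.7%, against 64.2%. The FOXA1dbd and FOXA1rraa intervals lay below the share of all genes. Respiratory chain genes were short, however, with a median body of 12.6 kb against 27.6 kb for all genes, and within classes of length the shares of the FOXA1 constructs lay near or above those of all genes. Under 10 kb, where 40 of the genes fell, FOXA1 reached 27.5% against 21.6%, FOXA1dbd 10.0% against 6.76%, FOXA1nhaa 25.0% against 16.1% and FOXA1rraa 12.5% against 12.1%. Between 10 and 50 kb, with 46 genes, FOXA1 reached 76.1% against 56.8%, FOXA1dbd 28.3% against 24.1%, FOXA1nhaa 54.3% against 49.0% and FOXA1rraa 43.5% against 41.5%. Over 50 kb, with 8 genes, FOXA1 reached 87.5% against 89.3%, FOXA1dbd 75.0% against 67.6%, FOXA1nhaa 87.5% against 88.0% and FOXA1rraa 75.0% against 81.7%. The lower shares of FOXA1dbd, FOXA1nhaa and FOXA1rraa over the whole set were therefore not seen within the 2 shorter classes.

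**Figure D1:**
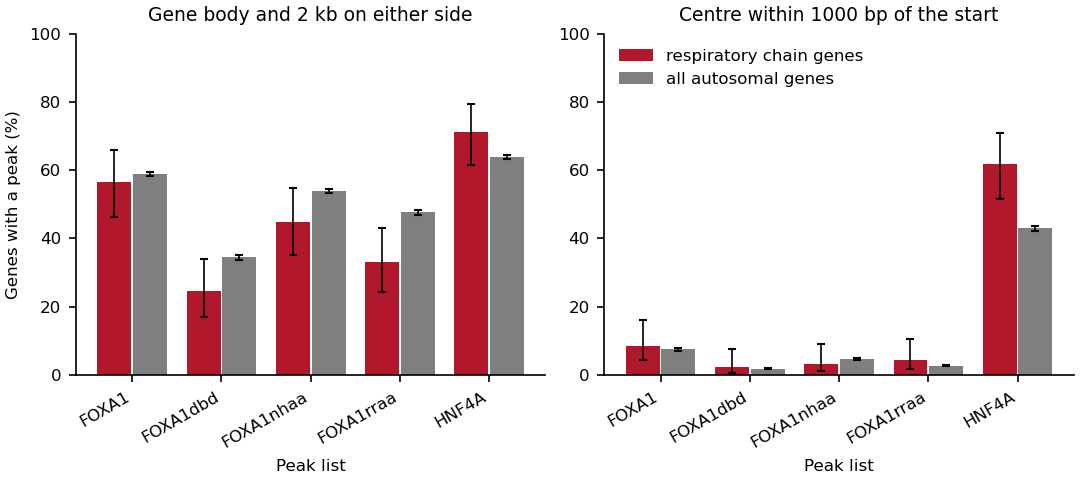
Share of genes with a peak of each list in the gene window (left) and at the start site (right), in percent, for the 94 respiratory chain genes (red) and all 19229 autosomal protein-coding genes (grey). Lines are 95% Wilson intervals; at the start site the HNF4A bars stand at 61.7% and 42.9%, and all FOXA1 bars lie under 10%.

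At start sites the HNF4A share lay above the background in both shorter length classes. It was 60.0% of the 40 respiratory chain genes under 10 kb against 31.2% of all genes of that length, and 67.4% of 46 against 45.8% between 10 and 50 kb. Over 50 kb it was 37.5%, or 3 of 8 genes, against 48.4%. The respiratory chain windows held 127 distinct HNF4A peaks, or 4.60 per 100 kb, against 2.14 per 100 kb over all gene windows, and 263 FOXA1 peaks, or 9.52 against 8.0 per 100 kb. Counted per gene the order was the reverse, with a mean of 1.37 HNF4A peaks against 1.74 and 2.8 FOXA1 peaks against 5.86. The windows of the cytosolic ribosomal protein genes, which are shorter still, held 7.75 HNF4A peaks per 100 kb.

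HNF4A was present at most genes of complexes II and V. Its start-site peak was found at 16 of the 18 ATP synthase genes, or 88.9% (67.2 to 96.9%), and at all 4 genes of complex II. It was found at 6 of the 8 assembly factors, 21 of the 37 complex I genes (56.8%), 4 of the 9 complex III genes (44.4%) and 6 of the 16 complex IV genes, or 37.5% (18.5 to 61.4%). The intervals of complexes IV and V did not overlap, and no test between complexes was made. Complex IV includes COX4I2, COX6A2, COX6B2, COX7A1, COX7B2 and COX8C, genes for tissue-restricted forms of a subunit. None of these had an HNF4A start-site peak, so the 6 complex IV genes with one were all among its other genes. The share of complex IV is therefore lower for counting the tissue-restricted forms. Shares of the complexes without such genes were not computed. Among the readthrough genes, ATP5MF-PTCD1 shared its peak with ATP5MF and NDUFC2-KCTD14 had none at its start.

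Within complex I, the highest HNF4A start-site peak was at NDUFAB1, which encodes the mitochondrial acyl carrier protein. Its score was 2077 at a fold enrichment of 42.9, the summit lay 126 bp inside the gene, and it was the highest-ranked peak of the entire HNF4A list. Scores and fold enrichments are the authors' own values for single peaks. NDUFB10, NDUFB9 and NDUFB2, subunits of the membrane arm, followed with scores of 761, 603 and 498. The centre of the NDUFB9 peak lay 92 bp from the start of TATDN1 on the other strand and 130 bp from that of NDUFB9. At the other end, NDUFS8 had a score of 41 and NDUFS4 one of 48, and the core subunit gene NDUFV1 had no peak of any list in its window.

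Among the assembly factors NDUFAF3, needed early in complex I assembly, had a start-site score of 972 with a fold of 26.3, and ranked 152 in the list. NDUFAF5 and NDUFAF7 had scores of 20 and 22, at the lower limit of the list, whose lowest score was 20. Complex II spanned a wide range. The flavoprotein gene SDHA had a score of 791 (fold 22.7, rank 331), the membrane anchor gene SDHD 357 (fold 12.4), the iron-sulfur gene SDHB 87 (fold 5.60) and the other anchor gene SDHC 27 (fold 3.25). The SDHD summit lay 753 bp upstream of SDHD and 636 bp from the start of TIMM8B. SDHA and SDHD thus lay above the list's median score of 99, and SDHB and SDHC below it.

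In complex III the start-site peaks belonged to UQCR10 with a score of 250, the Rieske protein gene UQCRFS1 with 178, the core protein gene UQCRC1 with 72, and UQCRQ with 46. UQCRH had no start-site peak but 1 HNF4A peak in its window, with a score of 824. In complex IV, COX5A stood at 616 with a fold of 18.6, and COX6B1, COX4I1, COX6C, COX8A and COX5B had scores of 210, 147, 117, 45 and 41. In complex V the score of the strongest start-site peak of each gene ran from 66 at ATP5F1A, the alpha subunit, to 398 at ATP5MF, a subunit of the membrane part. ATP5F1C, the gamma subunit of the central stalk, had 359. ATP5MK and ATP5PO were the ATP synthase genes with no HNF4A peak at their start.

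**Figure D2:**
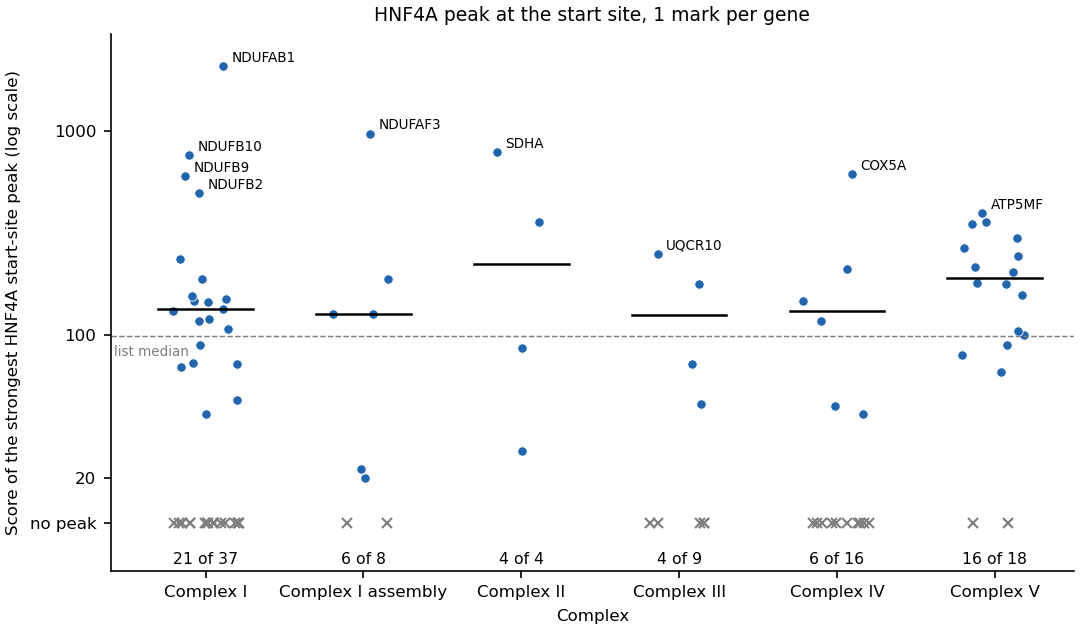
Score of the strongest HNF4A start-site peak (log scale) for each respiratory chain gene by complex, without the 2 readthrough genes. Blue points are genes with a peak, crosses genes with none, black lines the median of the genes with a peak, the dashed line the median score of the list (99), and the counts below give genes with a peak; NDUFAB1 stands highest at 2077.

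Taking all 75 distinct HNF4A start-site peaks of the respiratory chain together, their median score was 135, against 107 over the 9548 HNF4A peaks at any start site and 99 over the list. Their median rank percentile within the list was 65.0, against 53.3 for all start-site peaks. In the top 10% of the list were 11 of the 75, or 14.7%, against 13.7% of all start-site peaks. The genes of the cytosolic ribosome, another large set of short and widely expressed genes, had an HNF4A start-site peak at 40 of 80 genes, with a median score of 74.

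Genes for tissue-restricted forms of a subunit, together with retrocopies, were set beside their widely expressed partners. Of 9 such genes, ATP5MGL alone (1.99 to 43.5%) had an HNF4A start-site peak, with a score of 351 and a summit 984 bp inside its start, close to the 1000 bp limit and beyond the end of this gene of 0.799 kb. COX4I2, COX6A2, COX6B2, COX7A1 and UQCRHL had no peak of any list in their windows. NDUFA4L2 had 2 HNF4A peaks in its window and none at the start, COX7B2 had 1 FOXA1dbd and 1 FOXA1nhaa peak in its body of 174 kb, and COX8C had 1 FOXA1, 1 FOXA1dbd and 2 FOXA1nhaa peaks. Of the 8 partners, 5 (62.5%, 30.6 to 86.3%) had an HNF4A start-site peak, an interval that overlaps that of the restricted forms. They were COX4I1 (147), COX6B1 (210), COX8A (45), NDUFA4 (132) and ATP5MG (180). COX6A1, COX7A2 and UQCRH had none at the start, and of these only UQCRH had an HNF4A peak in its window. How reads that match both a gene and its retrocopy were treated is not given in the sources used here.

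The strongest peaks are shown by sequence for 3 complexes, read from GRCh37 on the strand of the gene in the 200 bp around the summit, less annotated UTR. Capitals mark exact matches, on either strand, to any of the searched motifs, here the HNF4 short core CAAAG, whose reverse complement is CTTTG, and the nuclear receptor hexamer AGGTCA, whose reverse complement is TGACCT. The stretches are chr16:23607411-23607610 on the minus strand, chr5:218624-218823 on the plus strand and chr15:75230118-75230270 on the minus strand.
NDUFAB1: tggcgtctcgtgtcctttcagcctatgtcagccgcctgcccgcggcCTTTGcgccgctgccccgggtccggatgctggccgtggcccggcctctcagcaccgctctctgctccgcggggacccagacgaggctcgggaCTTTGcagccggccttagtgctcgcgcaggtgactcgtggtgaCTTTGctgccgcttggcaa
SDHA: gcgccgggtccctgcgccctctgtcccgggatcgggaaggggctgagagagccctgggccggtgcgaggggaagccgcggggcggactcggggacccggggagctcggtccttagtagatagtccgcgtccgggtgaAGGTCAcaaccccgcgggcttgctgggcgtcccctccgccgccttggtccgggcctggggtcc
COX5A: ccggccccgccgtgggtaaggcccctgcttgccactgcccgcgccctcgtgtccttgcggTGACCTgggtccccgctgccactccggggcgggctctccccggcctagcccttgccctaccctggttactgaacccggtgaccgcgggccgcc
The NDUFAB1 stretch, at the highest HNF4A peak of the list, held 3 short cores and no AGGTCA, whereas those of SDHA and COX5A each held 1 AGGTCA.

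The full HNF4 core CAAAGTCCA occurred in none of the 75 start-site peaks of respiratory chain genes, which allows a share of up to 4.0%, and in 0.503% of all 9548 HNF4A start-site peaks. The short core CAAAG was as frequent as elsewhere, at 26 of 75 peaks (34.7%) against 34.9%. The hexamer AGGTCA was found in 24 of 75 peaks (32.0%) against 12.1%, and these 24 belonged to 20 of the 58 genes with a peak (34.5%), against 15.2% of all genes with an HNF4A start-site peak. By complex, AGGTCA was in 10 of 27 HNF4A start-site peaks at complex V, 5 of 25 at complex I and 3 of 6 at complex IV. It was in 2 of 5 each at complexes II and III, and in 2 of 7 at assembly factors. ATP5MC1 and ATP5MC3, which encode the same c-ring subunit, ATP5F1A and ATP5F1B, which encode the alpha and beta subunits, NDUFS6, NDUFS7 and COX4I1 were among the genes with a match. Their relatives ATP5MC2, which encodes that c-ring subunit too, ATP5F1C, ATP5F1D and ATP5F1E had HNF4A start-site peaks without AGGTCA. The same letters in reverse order, ACTGGA, were found in 13.3% of the 75 peaks and 8.95% of all start-site peaks.

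The extended hexamer TCAAGGTCA, which contains AGGTCA and is the textbook element of the oestrogen-related receptors, was found in 4 of the 75 peaks (5.33%) and in 30 of the 9548 (0.314%), so that 4 of the 30 were at respiratory chain genes. They belonged to ATP5MC3, NDUFAF4, ATP5F1B and NDUFAF5, and are shown because of that match, as chr2:176046439-176046591 and chr6:97346019-97346218 on the minus strand, chr12:57039559-57039747 on the minus strand and chr20:13766029-13766228 on the plus strand.
ATP5MC3: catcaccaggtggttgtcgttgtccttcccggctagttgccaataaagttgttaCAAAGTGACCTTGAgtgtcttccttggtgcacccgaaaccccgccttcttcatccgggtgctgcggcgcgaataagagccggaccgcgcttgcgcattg
NDUFAF4: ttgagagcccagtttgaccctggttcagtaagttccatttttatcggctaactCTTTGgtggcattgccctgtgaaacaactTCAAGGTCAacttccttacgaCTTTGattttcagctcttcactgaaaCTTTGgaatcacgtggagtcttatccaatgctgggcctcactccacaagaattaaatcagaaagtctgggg
ATP5F1B: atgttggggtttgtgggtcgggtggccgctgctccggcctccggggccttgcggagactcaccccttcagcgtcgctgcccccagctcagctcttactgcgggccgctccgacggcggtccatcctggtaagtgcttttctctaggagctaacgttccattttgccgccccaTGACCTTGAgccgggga
NDUFAF5: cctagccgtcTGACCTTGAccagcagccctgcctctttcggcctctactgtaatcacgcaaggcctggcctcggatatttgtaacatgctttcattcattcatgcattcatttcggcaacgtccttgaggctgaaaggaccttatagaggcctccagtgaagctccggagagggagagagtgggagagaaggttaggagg
In ATP5MC3 the capitals join a short core CAAAG directly to the reverse complement TGACCTTGA of the extended hexamer. The peak scores at these sites were 158 for ATP5MC3, 149 for NDUFAF4, 55 for ATP5F1B and 20 for NDUFAF5, so none was among the strongest. These genes were chosen after the matches were seen.

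The hexamer was also frequent in the 200 bp around the start itself, without reference to a peak. There AGGTCA occurred at 20.2% of the 94 genes and 6.80% of all genes, the NRF1 core GCGCATGCG at 7.45% and 1.85%, the YY1 core AAGATGGCG at 10.6% and 2.68%, and the ETS core CCGGAAGT at 8.51% and 5.14%. Of the 58 respiratory chain genes with an HNF4A start-site peak, 16 (27.6%) had AGGTCA at the start, and of the 36 without a peak 3 (8.33%) had it. Over all genes the shares were 5.33% with and 7.90% without a peak. Inside the HNF4A start-site peaks, NRF1 and ETS cores were each found in 4 of 75 (5.33%), against 0.607% and 2.75% of all start-site peaks, and the YY1 core in 1 (1.33%) against 0.911%. A match describes the letters in the window and not a bound site.

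HNF4A start-site peaks followed GC content. Over all genes, ordered in 5 groups of similar size by the GC content of the 200 bp around the start, 10.2, 34.9, 49.6, 60.0 and 58.5% had such a peak from the lowest to the highest group. The respiratory chain genes in these groups had one at 3 of 11 (27.3%), 19 of 33 (57.6%), 20 of 30 (66.7%), 11 of 15 (73.3%) and 5 of 5. Their median GC content was 64.0%, against 66.5% for all genes, and in each of the 5 groups their share lay above that of all genes. The part of GC content in the result was not tested beyond this split.

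**Figure D3:**
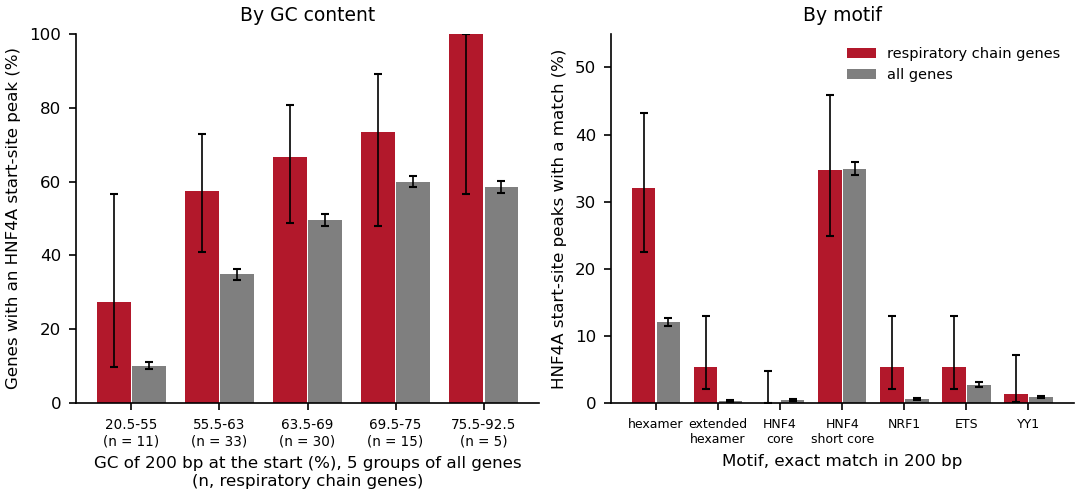
Left, share of genes with an HNF4A start-site peak in 5 groups of start-site GC content, in percent; right, share of HNF4A start-site peaks with an exact motif match in 200 bp, in percent. Red bars are respiratory chain genes, grey bars all genes, lines are 95% Wilson intervals; the hexamer is matched in 32.0% against 12.1% of peaks, and the red bar is the higher in each GC group.

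Paired promoters were common among these genes. The start of another gene on the opposite strand lay within 1000 bp at 28 of the 94 genes (29.8%), against 10.1% of all genes. Over all genes an HNF4A start-site peak was present at 70.7% of starts so paired and 39.8% of the others. Among respiratory chain genes it was present at 17 of 28 paired starts (60.7%) and 41 of 66 unpaired starts (62.1%). The share of respiratory chain genes thus lay below that of all genes at paired starts and above it at unpaired starts. A peak between paired starts cannot be assigned to either gene.

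FOXA1 and its variants were found mostly inside the gene bodies. Of the 263 FOXA1 peaks in the windows, 199 (75.7%) were centred in introns and 8 at start sites, whereas 75 of the 127 HNF4A peaks (59.1%) were at start sites and 30 in introns. Over the windows of all genes 1.38% of FOXA1 peaks and 34.3% of HNF4A peaks were at start sites, beside 3.04% and 59.1% here. These shares depend on gene length, which was shorter here (median 12.6 against 27.6 kb), and they were not split by it. The share in introns was not computed over all genes, so the intron counts describe these windows only. Long genes held many of the FOXA1 peaks. The 6 longest genes held 96 of the 263 (36.5%) and 15 of the 127 HNF4A peaks (11.8%). These 6 genes were 108 to 221 kb long, and all windows of the set together covered 2761 kb. They thus also made up much of the sequence, and these shares of peaks are not scaled by length. NDUFAF2, a complex I assembly factor gene of 209 kb, held 39 FOXA1, 5 FOXA1dbd, 22 FOXA1nhaa and 15 FOXA1rraa peaks and no HNF4A peak. NDUFS4, an accessory subunit gene of 123 kb, held 23 FOXA1 peaks, with 6, 19 and 15 of the dbd, nhaa and rraa variants, and 1 HNF4A peak. NDUFAF6, of 221 kb, held 20 FOXA1 and 10 HNF4A peaks, of which 2 were centred 841 and 8 bp from the start of TP53INP1, a gene in the same window.

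Shorter genes could also hold many peaks and a long gene few. NDUFV2, a core subunit gene of the NADH-oxidising module, held 18 FOXA1 peaks in 31.7 kb with 4 FOXA1dbd, 11 FOXA1nhaa and 11 FOXA1rraa peaks, and 2 HNF4A peaks. NDUFS1 and NDUFAF5 held 10 and 8 FOXA1 peaks. COX7B2, of 174 kb, held no FOXA1 or HNF4A peak. Peaks of all 5 lists lay in the windows of 11 genes (11.7%), against 25.7% of all genes, among them ATP5F1C, ATP5F1E, ATP5MG, ATP5PB, COX7A2L and NDUFA10. No list reached 12 genes (12.8%), against 19.3%, and HNF4A alone reached 24 (25.5%), against 16.5%. Another 15 genes (16.0%) had a peak of some FOXA1 construct and none of HNF4A, against 16.9%. None of these combinations was split by gene length, and respiratory chain genes were shorter than all genes (median 12.6 against 27.6 kb).

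**Figure D4:**
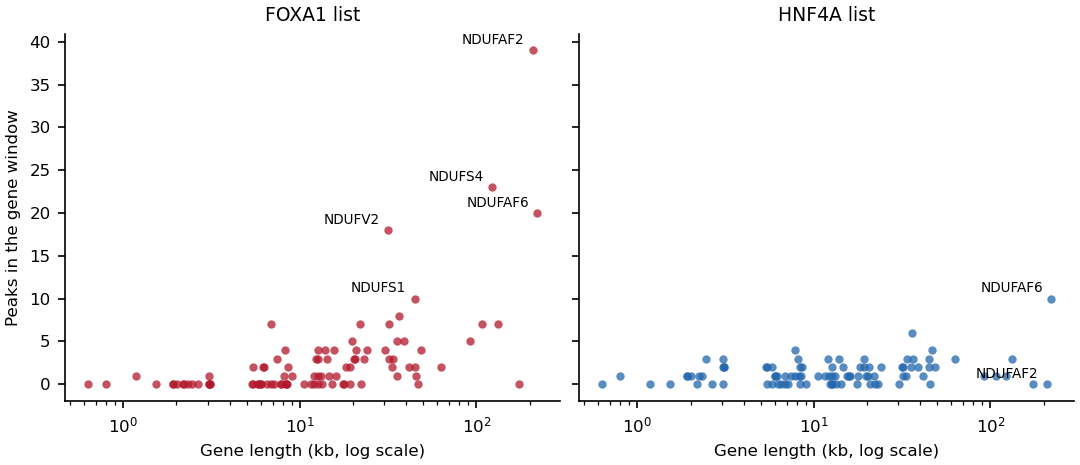
Number of FOXA1 (left) and HNF4A (right) peaks in the gene window against the length of the gene body (kb, log scale), with 1 point per respiratory chain gene and genes with 10 or more peaks named, and NDUFAF2 named in both panels. NDUFAF2 has 39 FOXA1 peaks and no HNF4A peak.

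The 8 FOXA1 start-site peaks were at NDUFV2 (score 275), COX7A2 (268), NDUFA11 (106), NDUFA8 (101), ATP5MG (97), NDUFC1 (90), NDUFB5 (47) and NDUFS4 (27). Their median score of 99 was below the median of 124 over the FOXA1 list, and none was in the top 10% of the list. Over the 1438 FOXA1 start-site peaks of all genes the median was also lower, at 111, and 6.40% were in the top 10%. All 8 peaks at respiratory chain genes were away from the start, 463 to 825 bp from it, and 7 of the 8 were upstream. In contrast, 31 of the 76 pairs of a gene and an HNF4A start-site peak (40.8%) lay within 200 bp of the start. Over all genes 10.5% of FOXA1 and 35.5% of HNF4A pairs lay within 200 bp. FOXA1rraa had a further start-site peak at NDUFB8, with a score of 162. It is the same row as a FOXA1 peak whose midpoint lay beyond 1000 bp, since the FOXA1 list gives no summit, and therefore shows no difference between the 2 constructs.

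**Figure D5:**
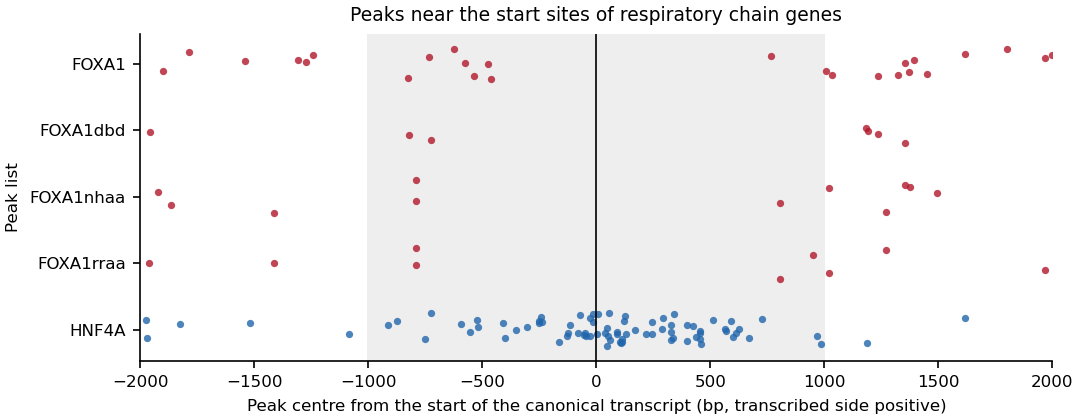
Distance in bp from the start of the canonical transcript to the centre of each peak within 2 kb, for respiratory chain genes, with 1 point per gene and peak and 1 line of points per list (points are spread vertically for legibility). Grey marks the 1000 bp used for start-site peaks; HNF4A points (blue) gather around 0 and no FOXA1-construct point (red) lies within 200 bp.

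At NDUFV2 and COX7A2, the liver-type form of a complex IV subunit, all 4 FOXA1 constructs had a start-site peak. At NDUFV2 the scores were 275 for FOXA1, 95 for FOXA1dbd and 97 for FOXA1nhaa and FOXA1rraa, and at COX7A2 they were 268, 48 and 113. Scores of different lists are not on 1 scale, and the FOXA1nhaa and FOXA1rraa peaks were identical rows in the 2 lists. ATP5MG had peaks of FOXA1, FOXA1nhaa and FOXA1rraa overlapping an HNF4A peak. The sequences of NDUFV2 and COX7A2 are shown since all 4 FOXA1 constructs met there, and those of ATP5MG and NDUFB5 since they were the genes with a forkhead core, TGTTTAC or TATTTAC, in a start-site peak. They are chr18:9101861-9102060, chr11:118273025-118273224 and chr3:179321857-179322056 on the plus strand and chr6:75954242-75954441 on the minus strand, centred on the FOXA1 peak or, for ATP5MG, the FOXA1nhaa peak.
NDUFV2: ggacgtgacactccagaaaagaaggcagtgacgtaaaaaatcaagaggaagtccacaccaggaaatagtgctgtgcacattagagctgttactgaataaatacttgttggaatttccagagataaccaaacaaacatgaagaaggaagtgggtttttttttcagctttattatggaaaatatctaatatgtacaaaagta
COX7A2: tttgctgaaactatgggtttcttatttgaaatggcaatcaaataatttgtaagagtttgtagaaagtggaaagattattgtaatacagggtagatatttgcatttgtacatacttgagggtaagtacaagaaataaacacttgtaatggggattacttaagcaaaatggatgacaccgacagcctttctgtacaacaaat
ATP5MG: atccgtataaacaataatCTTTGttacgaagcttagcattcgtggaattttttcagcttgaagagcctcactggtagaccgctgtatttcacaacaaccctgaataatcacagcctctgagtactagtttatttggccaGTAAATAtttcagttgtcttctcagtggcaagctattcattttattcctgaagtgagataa
NDUFB5: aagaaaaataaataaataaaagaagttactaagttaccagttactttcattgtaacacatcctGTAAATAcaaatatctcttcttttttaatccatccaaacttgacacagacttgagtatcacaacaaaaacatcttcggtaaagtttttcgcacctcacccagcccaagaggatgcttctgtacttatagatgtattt
In ATP5MG and NDUFB5 the capitals GTAAATA are the core TATTTAC on the other strand, and ATP5MG also holds a CTTTG. The stretches of NDUFV2 and COX7A2 held neither forkhead core. Of the 8 FOXA1 start-site peaks 2 (25.0%) held a core, against 19.7% of the 1438 FOXA1 start-site peaks of all genes.

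The variants overlapped FOXA1 peaks in these genes in the following shares. Of the 263 FOXA1 peaks, 17.1% overlapped a FOXA1dbd peak, against 17.3% of the whole list, 38.0% a FOXA1nhaa peak, against 39.7%, and 35.7% a FOXA1rraa peak, against 39.9%. No variant overlapped 115 of the 263 (43.7%, against 41.5% of the list), all 3 overlapped 17 (6.46%, against 8.21%), and 1 or 2 overlapped 131 (49.8%, against 50.3%). In the reverse direction FOXA1 peaks overlapped 97.9% of the 47 FOXA1dbd peaks, against 96.2% of that list, 67.5% of the 151 FOXA1nhaa peaks, against 58.4%, and 93.1% of the 102 FOXA1rraa peaks, against 86.8%. The FOXA1rraa values are not independent of the others, because 36 of its 102 peaks were rows of the FOXA1 list and 62 were rows of the FOXA1nhaa list. HNF4A and FOXA1 peaks seldom met, with 6 of the 127 HNF4A peaks (4.72%, against 6.76% of the list) and 6 of the 263 FOXA1 peaks (2.28%, against 1.68%) overlapping.

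HNF4A was also frequent at the starts of other genes of mitochondrial energy supply. Its start-site peak was present at all 13 citric acid cycle genes, 32 of 44 further assembly factors (72.7%), 53 of 78 genes of the mitochondrial ribosome (67.9%), 11 of 14 regulators of the chain such as NRF1, GABPA and TFAM (78.6%), and 1 of 2 genes for cytochrome c and its partners, beside 42.9% of all genes. FOXA1 start-site peaks were present at 2 of 13 (15.4%), 6 of 44 (13.6%), 12 of 78 (15.4%), 3 of 14 (21.4%) and 0 of 2 of the same lists. All but the last of these shares lay above the 7.44% of all genes, and the interval of the mitochondrial ribosome (9.03 to 25.0%) did not include it. Outside mitochondrial energy supply, the cytosolic ribosome had a FOXA1 start-site peak at 13 of 80 genes, or 16.2% (9.75 to 25.8%). These lists were described by their counts only, and no difference between them and the respiratory chain was tested.

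As a check of the labels, the HNF4A list held 10 peaks over coding exons of the HNF4A gene, with a highest score of 168, and none of the other lists held any. No FOXA1 or variant peak lay over the FOXA1 coding exons, so the check gave nothing for these constructs, and 1 HNF4A peak, with a score of 763, lay there.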

How the data were processed

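ChIP-seq peak lists of 5 HALO-tagged constructs in BJ fibroblasts were analysed, 1 per construct. The tools named in the submitters' processing notes are Bowtie2 2.3.4.1, Picard, GATK 4.2.6.0, bedtools 2.27.1, MACS2 2.2.7.1 and deepTools 3.5.0, with hg19; their roles, the use of inputs and any pooling of libraries are not given in the sources used here. The deposited FOXA1 lists hold a score per peak. Each of the other deposited lists adds to the score the fold enrichment, a ratio, with −log10 p-value, −log10 q-value and summit. All are the authors' values of individual peaks and served for description and ranking inside 1 list. Read counts are not part of the lists, and the depth is unknown.

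No peak passed the end of a GRCh37 chromosome, and GENCODE 44 lifted to GRCh37 supplied genes. Rows with equal coordinates were counted once. As the centre of a peak its summit was used, or the midpoint if the summit fell outside the row or, as for FOXA1, was not listed. Distances were taken from the canonical transcript's start, or the gene's 5′ end where none is marked (1 of the 94 genes, NDUFB6). Motifs were exact matches on both strands in 200 bp. Shares carry 95% Wilson intervals. Code was written in Python 3.11.15 with pandas 2.3.3, SciPy 1.17.1 and pysam 0.24.0, and the interval search was tested on simulated data.

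Genes were named by rule: the 12 highest HNF4A start-site peaks, the genes with most FOXA1 or variant peaks, those with a FOXA1-construct start-site peak or a core, isoform pairs, complex II, and up to 6 genes with peaks of all or no lists. Other names, the genes with an extended hexamer and the reversed-letter comparison were chosen after values were seen. Members and lists were chosen with earlier results of these data known. Alternatives changed the window, the distance, the centre, the peaks kept and the genes kept. The H2B samples were not analysed here.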

Additional observations from a re-analysis of the deposited data

How the results depend on the processing

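No paired analysis was possible because a construct is represented by 1 peak list, which also leaves no replicate to omit. With 94 genes, and 75 peaks for motifs, shares of a few percent rest on 1 to 4 genes. The HNF4A shares of respiratory chain genes, at the start site and in the window, stayed above those of all genes under every alternative of the kind listed here. Those of FOXA1dbd, FOXA1nhaa and FOXA1rraa in the window stayed below under these alternatives, but split by gene length they lay above all genes in both classes under 50 kb (FOXA1dbd also above 50 kb), while the HNF4A shares over 50 kb lay below (75.0% against 79.3% in the window, 37.5% against 48.4% at the start). The HNF4A start-site share also lay below that of all genes at starts paired with one on the opposite strand (60.7% against 70.7%). The FOXA1 window share changed side with the top 50% of peaks (47 of the 94 genes, against 48.7% of all genes), and the start-site share of each FOXA1 construct changed side under 2 or 3 alternatives. Of 86 values under alternatives, 60 stayed within the interval of the reported share, or within 1.5 times a count, and the following 26 did not.

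The share of all genes under the same alternative follows each share in parentheses. When every list was reduced to its 28831 peaks of highest score, the window shares were 29.8% (33.9%) for FOXA1 and 28.7% (34.7%) for FOXA1nhaa. The start-site shares were then 2.13% (1.03%) for FOXA1 and 1.06% (1.02%) for FOXA1nhaa. With the top 50% of each list, the window shares were 11.7% (24.0%) for FOXA1dbd and 52.1% (46.8%) for HNF4A. The start-site shares were then 2.13% (3.26%) for FOXA1 and 43.6% (26.2%) for HNF4A. With the down-sampled FOXA1 list, the window share was 34.0% (38.9%) and the start-site share 1.06% (2.22%). With 10 kb flanks, the window shares were 36.2% (40.9%) for FOXA1dbd, 60.6% (63.0%) for FOXA1nhaa and 46.8% (55.6%) for FOXA1rraa, with HNF4A at 81.9% (71.6%). Within 500 bp of the start, the shares were 2.13% (2.33%) for FOXA1, 0 (0.520%) for FOXA1dbd, 0 (1.31%) for FOXA1nhaa and 0 (0.775%) for FOXA1rraa. Within 2500 bp they were 27.7% (23.8%) for FOXA1, 7.45% (6.54%) for FOXA1dbd and 9.57% (16.8%) for FOXA1nhaa. With the start of any transcript, they were 25.5% (25.2%) for FOXA1, 13.8% (19.9%) for FOXA1nhaa and 10.6% (14.9%) for FOXA1rraa. In windows of 100 bp, AGGTCA was in 17.3% of the HNF4A start-site peaks of respiratory chain genes (7.26% of all start-site peaks) and CAAAG in 21.3% (20.8%). Fewer peaks, another distance and a shorter window change these shares by construction. Midpoints for every row, and FOXA1rraa without rows of the FOXA1 list, were added after the data were seen, as was the share of genes with a motif.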
